A study of Homo sapiens with 12 samples.

Results

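Cells build cholesterol from acetyl-CoA through mevalonate, squalene and lanosterol, and build fatty acids from the same acetyl-CoA through malonyl-CoA. Both routes are controlled at the level of transcription by SREBP factors, which are released from the endoplasmic reticulum when membrane sterols fall, escorted by SCAP and held back by the INSIG proteins. The 34 genes described here, 26 of the sterol branch and 8 of the fatty acid branch, are enzymes, regulators and transporters of these routes. They were listed by their role in the routes, with earlier results of these data known. Of them, 31 had a probe set of their own, out of 19775 genes on the array, and 30 of those passed the filter on low values, out of 12852 genes kept. The 23 sterol and 7 fatty acid genes that passed are the ones counted below. FDFT1, the squalene synthase gene, had no probe set under its name in the annotation used, while the probe sets of CYP51A1 and FADS1 each named a further gene and were not assigned. ABCA1, the cholesterol exporter, was measured but stayed near background, at 4.24 to 4.64 over the 12 arrays, and was not tested.

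The cells were Hke3 and Hkh-2, both derived from the human colorectal cancer line HCT116 by homologous recombination at its oncogenic RAS allele and labelled wild type (the methods describe the mutant allele of both as deleted), and HCT116 control cells kept with either 25 ng/ml doxycycline or vehicle and collected on day 3. Each group held 3 arrays of 1 cell line, so a difference between groups is one between single cell lines. The recombined lines were grown in basal condition and not with vehicle, and the sources do not settle whether the control arrays are parental cells or cells with a control vector, so cell line and culture cannot be told apart. HCT116 control vehicle is the comparator throughout, unless another group is named. The methods give triplicates without saying whether these were separate cultures, and the p-values then reflect nothing beyond the spread between arrays, possibly technical.

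All values are log2 intensities from RMA, a procedure that removes background, equalises the arrays and gives 1 value per probe set, so that a step of 1 is a doubling. Where a gene had several probe sets, the brightest on average stood for it. A gene was kept if any group averaged 6 or more, and was called where limma gave a Benjamini-Hochberg adjusted p under 0.05 over all genes kept. Array medians lay between 5.80 and 5.86, and arrays of a group correlated across probe sets with r between 0.993 and 0.998. Within their groups, Hke3 replicate 3 and vehicle replicate 2 lay apart from the other arrays, and their deviations from the group means correlated across genes with r = 0.683. The 5 epithelial markers (EPCAM, CDH1, KRT8, KRT18 and KRT19) lay between 10.82 and 14.58 on all arrays, whereas of the 3 colon markers LGALS4 had every group mean under 6 and CDX2 and VIL1 stayed at or below 7.11. Of the 11 markers of leukocytes, endothelium, fibroblasts, adipocytes and hepatocytes, 4 (PTPRC, ADIPOQ, ALB and APOA1) had every group mean under 6. The others (CD3E, PECAM1, VWF, COL1A1, COL3A1, DCN and PLIN1) averaged 6 or more in some group, with COL1A1 highest, at group means of 8.19 to 8.43. Summed on the linear scale, the 11 gave 721 to 757 per array in Hke3, 799 to 881 in Hkh-2, 830 to 922 with doxycycline and 820 to 871 with vehicle, and their part in the results was not tested.

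Sterol genes were mostly higher in both recombined lines than in HCT116 control vehicle, and fatty acid genes were divided. In bulk RNA, fewer expressing cells and less RNA per cell cannot be told apart. Counting both directions, 47.8% of all genes tested were called in Hke3 and 36% in Hkh-2. In Hke3, 15 of the 23 sterol genes rose, where 23.2% of all genes tested rose, and 3 fell, where 24.6% of all genes fell. In Hkh-2, 14 of 23 rose and 1 fell, beside 21.7% and 14.3% of all genes. The median log2 fold change of the sterol genes was 0.46 in Hke3 and 0.39 in Hkh-2, against -0.04 and 0.02 over all genes tested. Of the 7 fatty acid genes, 2 rose and 4 fell in Hke3, and 2 rose and 3 fell in Hkh-2, with medians of -0.28 and -0.30. In all, 10 sterol genes rose in each line, namely ACAT2, HMGCS1, IDI1, TM7SF2, MSMO1, NSDHL, HSD17B7, SC5D, INSIG1 and MYLIP, and SREBF1 alone fell in each, beside 12.6% of all genes rising and 9.04% falling in both. No gene of either branch was called in opposite directions in the lines, as 2.32% of all genes were. MVK and DHCR7 were so called without Hke3 replicate 3, but not without vehicle replicate 2. Among fatty acid genes ACSS2 and ELOVL6 rose in each line, and FASN and FADS2 fell in each, as did ACACA by its brightest probe set. The second probe set of ACACA was called higher in both lines. Without ACACA, 3 fatty acid genes fell in Hke3 and 2 in Hkh-2, with medians of -0.23 and -0.13 over 6 genes, and by its second probe set 3 rose in each line, with medians of -0.17 and 0.03. IDI1 and EBP also had another probe set called lower in Hkh-2.

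**Figure D1:**
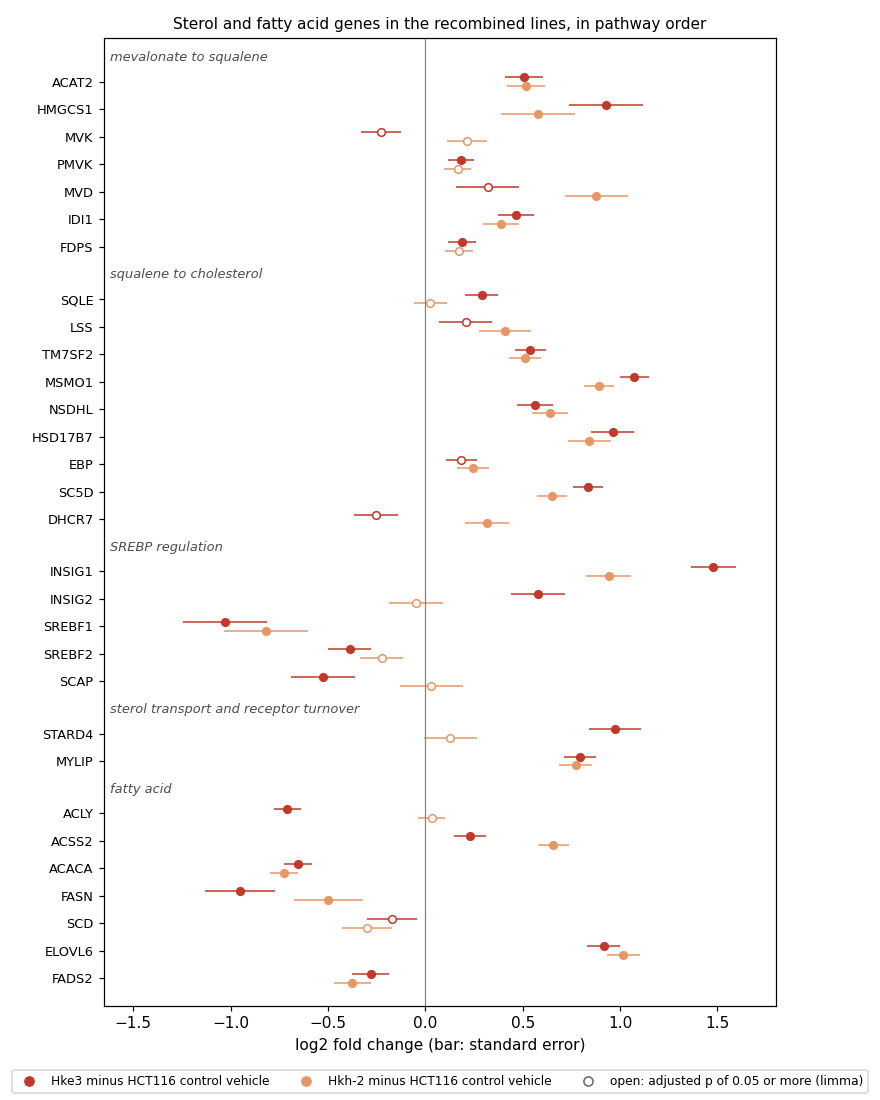
Log2 fold change of each tested gene (x axis, with its standard error) in Hke3 and in Hkh-2 against HCT116 control vehicle, in pathway order from top to bottom. Filled points passed an adjusted p of 0.05 in limma and open points did not. INSIG1 lies farthest right at 1.48 in Hke3, and SREBF1 farthest left at -1.03.

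The changes were moderate. No gene of either branch passed the log2 fold change of 1.5 that the study used as a size threshold, which 1.94% of all genes passed upward and 0.521% downward in Hke3, and 1.6% and 0.63% in Hkh-2. Averaged over the 16 sterol enzymes, the log2 level relative to the vehicle mean was 0.39, 0.44 and 0.44 on the Hke3 arrays, 0.49, 0.46 and 0.45 on the Hkh-2 arrays, 0.00, -0.04 and -0.02 with doxycycline and -0.01, 0.04 and -0.03 with vehicle. The recombined arrays thus lay together, apart from the HCT116 arrays. The same average over the 7 fatty acid genes was -0.21, -0.29 and -0.19 in Hke3, 0.03, 0.00 and -0.12 in Hkh-2, -0.06, 0.04 and 0.01 with doxycycline and -0.07, 0.11 and -0.05 with vehicle, and it was below all other arrays in Hke3. ELOVL6 and ACSS2 rose while others fell. The median over the same genes was -0.32, -0.27 and -0.33 in Hke3, -0.08, -0.26 and -0.50 in Hkh-2, -0.03, 0.06 and 0.02 with doxycycline and -0.03, 0.14 and -0.12 with vehicle. Hkh-2 replicates 2 and 3 thus lay below all HCT116 arrays, while Hkh-2 replicate 1 (-0.08) lay above vehicle replicate 3 (-0.12). Over all genes kept the average stayed between -0.01 and 0.08 on every array. The arrays of Hke3 and vehicle did not overlap for 22 of the 30 genes, and those of Hkh-2 and vehicle for 22, beside 49.6% and 49% of all genes. Against all HCT116 arrays, 12 of the 23 sterol genes had all 6 recombined arrays above all 6 HCT116 arrays and 1 had them all below, beside 13.7% and 10.7% of all genes. Of the 7 fatty acid genes 1 lay entirely above and 3, ACACA among them by its brightest probe set, entirely below. Both comparisons share the vehicle arrays. Without vehicle replicate 2 and Hke3 replicate 3, the sterol genes called higher numbered 14 in Hke3 and 14 in Hkh-2, where 24.7% and 28.4% of all genes were higher, with 10 in both, beside 13.2%. Those called lower numbered 5 and 2, beside 29.8% and 19.3%.

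**Figure D2:**
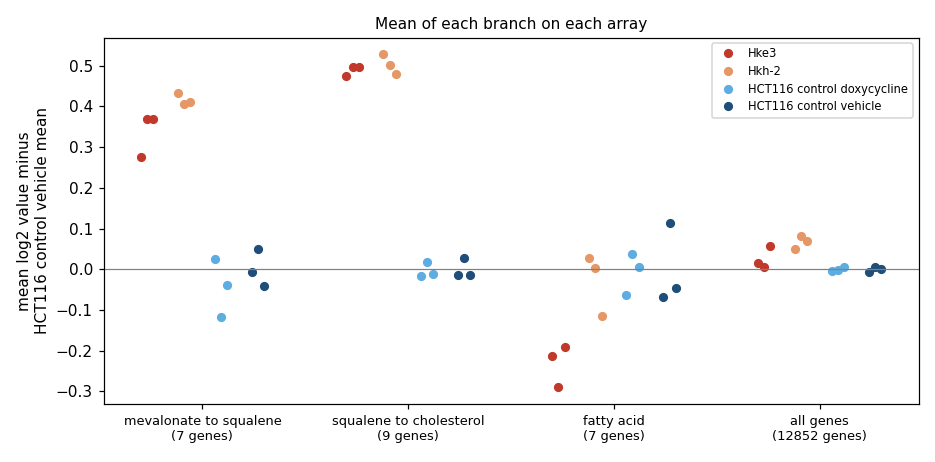
Mean log2 value relative to the vehicle mean (y axis) on each array (points, coloured by group) for the 7 genes from mevalonate to squalene, the 9 from squalene to cholesterol, the 7 fatty acid genes and all 12852 genes kept (x axis). Both sterol stretches lie above the HCT116 arrays on every recombined array, and the fatty acid mean is lowest in Hke3, at -0.29 to -0.19. The medians of the same genes (not drawn) are -0.50 to -0.08 in Hkh-2, where replicate 1 (-0.08) overlaps vehicle (replicate 3 at -0.12).

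The 250 bases upstream of the start site were read for the 30 of 34 genes with an entry in RefSeq's promoter table (GRCh38.p14), and are shown for genes that rose in both lines with and without a CCAAT box, for SREBF1, which fell, and for SREBF2. Capitals mark CCAAT, the box bound by NF-Y, on either strand (ATTGG on the opposite one), and, in SREBF2, the exact sterol regulatory element. INSIG1 lies at chr7:155297628-155297877, plus strand, MSMO1 at chr4:165327419-165327668, plus strand, NSDHL at chrX:152830813-152831062, plus strand and HMGCS1 at chr5:43313413-43313662, minus strand. ELOVL6 lies at chr4:110198616-110198865, minus strand, SREBF1 at chr17:17836987-17837236, minus strand, and SREBF2 at chr22:41832855-41833104, plus strand. The ELOVL6 gene as annotated reaches chr4:110199202, so its window lies inside the gene, downstream of its outermost start, and bases upstream of that start were not read.
INSIG1: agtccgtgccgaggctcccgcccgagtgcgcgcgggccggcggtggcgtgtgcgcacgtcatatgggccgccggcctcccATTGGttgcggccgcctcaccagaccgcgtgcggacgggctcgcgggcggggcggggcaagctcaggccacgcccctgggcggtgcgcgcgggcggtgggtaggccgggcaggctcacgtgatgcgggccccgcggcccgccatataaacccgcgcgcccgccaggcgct
MSMO1: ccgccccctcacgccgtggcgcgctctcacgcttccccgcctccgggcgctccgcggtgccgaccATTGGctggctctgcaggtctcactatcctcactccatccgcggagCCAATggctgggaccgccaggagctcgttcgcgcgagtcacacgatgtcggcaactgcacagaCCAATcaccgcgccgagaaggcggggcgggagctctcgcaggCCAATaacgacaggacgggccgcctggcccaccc
NSDHL: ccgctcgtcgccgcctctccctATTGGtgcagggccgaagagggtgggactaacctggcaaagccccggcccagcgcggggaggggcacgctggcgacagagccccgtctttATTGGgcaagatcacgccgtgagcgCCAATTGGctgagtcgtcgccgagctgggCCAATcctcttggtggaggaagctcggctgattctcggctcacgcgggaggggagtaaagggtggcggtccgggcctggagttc
HMGCS1: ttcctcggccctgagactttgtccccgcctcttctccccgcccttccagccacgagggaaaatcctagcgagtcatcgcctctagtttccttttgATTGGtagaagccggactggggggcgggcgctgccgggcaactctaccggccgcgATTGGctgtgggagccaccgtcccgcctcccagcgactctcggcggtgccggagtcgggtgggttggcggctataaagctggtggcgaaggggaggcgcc
ELOVL6: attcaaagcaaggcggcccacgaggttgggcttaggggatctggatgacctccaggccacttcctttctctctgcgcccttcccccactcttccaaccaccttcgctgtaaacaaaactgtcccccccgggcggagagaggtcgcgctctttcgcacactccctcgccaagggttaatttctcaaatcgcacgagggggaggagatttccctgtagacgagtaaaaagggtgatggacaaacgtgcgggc
SREBF1: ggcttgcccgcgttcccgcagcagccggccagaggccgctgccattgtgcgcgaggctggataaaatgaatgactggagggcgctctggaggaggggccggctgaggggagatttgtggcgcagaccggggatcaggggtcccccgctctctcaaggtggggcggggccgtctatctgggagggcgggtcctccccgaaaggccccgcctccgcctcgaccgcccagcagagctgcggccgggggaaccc
SREBF2: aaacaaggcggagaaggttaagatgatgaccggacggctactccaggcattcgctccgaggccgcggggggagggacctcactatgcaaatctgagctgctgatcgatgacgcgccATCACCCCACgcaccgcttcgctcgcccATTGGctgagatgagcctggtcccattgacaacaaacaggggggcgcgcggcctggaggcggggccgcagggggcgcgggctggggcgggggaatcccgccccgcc

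A CCAAT box stood in 19 of the 30 promoters (63.3%), against 33% of the 27305 promoters in the table, and at least 2 of them in 12 of the 30, against 10% of the table. The table was not limited to the 12852 genes kept here and was not matched for expression or base composition. Whether the shares given here are particular to these genes was therefore not tested. NSDHL held 5, of which 1 pair overlapped, MSMO1 held 4, HMGCS1 held 2 and INSIG1 held 1. Of the 12 genes that rose in both lines 11 had an entry and 9 of those held the box, ELOVL6 and IDI1 being the exceptions. Of the 4 that fell in both lines 3 had an entry (SREBF1, ACACA and FADS2) and 0 held it, while FASN had no entry. ACACA had probe sets called in both directions. Leaving it out, the share was 0 of 2, and counting it as higher, 9 of 12 promoters of genes higher in both lines held the box. Of the 14 other tested genes 13 had an entry and 10 held it. Of the 4 genes not tested 3 had an entry (CYP51A1, ABCA1 and FADS1) and 0 held it. The GC box GGGCGG stood in 28 of the 30 (93.3%), against 42.3% of the table, and the E-box CACGTG in 4 (13.3%), against 6.49%. The exact sterol regulatory element was found in SREBF2 only, at -134 from the start, and in 0.0366% of the table. Both strands were searched, a match is a run of letters and not a measured site, and no binding was measured here.

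**Figure D3:**
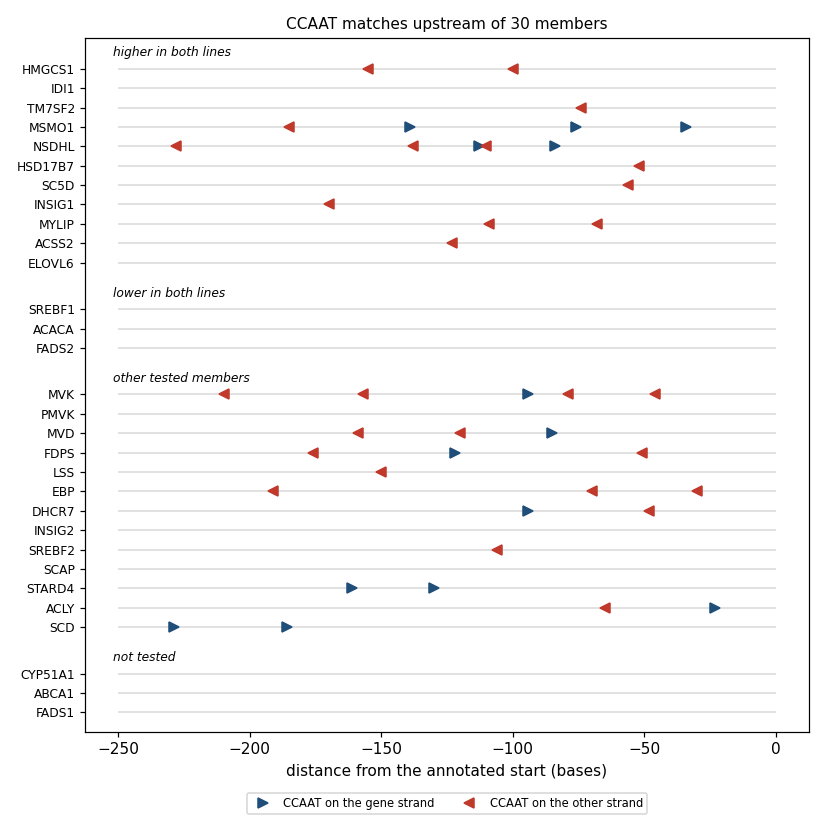
Positions of CCAAT boxes (triangles, with their direction showing the strand) in the 250 bases upstream of the start site (x axis, bases from the start) for the 30 genes with a promoter entry (rows), grouped by whether the gene rose in both lines, fell in both, had another pattern or was not tested. The marks are in 9 of 11 promoters of genes higher in both lines, 10 of 13 of other tested genes and 0 of 3 of genes not tested. For genes lower in both they are in 0 of 3, or 0 of 2 without ACACA, whose probe sets went both ways. FASN, also lower in both, had no entry.

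At the start of the sterol route, 5 of 7 genes rose in Hke3 and 4 of 7 in Hkh-2, and none fell by its brightest probe set. Over all genes tested, 23.2% rose and 24.6% fell in Hke3, and 21.7% rose and 14.3% fell in Hkh-2. HMGCS1 makes the HMG-CoA from which mevalonate is formed. Its log2 levels were 9.92, 10.09 and 9.78 in Hke3, 9.57, 9.44 and 9.73 in Hkh-2, 9.00, 8.20 and 9.13 with doxycycline and 8.94, 8.92 and 9.16 with vehicle. All recombined arrays exceeded all HCT116 arrays, among which doxycycline replicate 2 was lowest. The log2 fold changes were 0.93 ± 0.19 in Hke3 (adjusted p = 0.00149) and 0.58 ± 0.19 in Hkh-2 (adjusted p = 0.0305). ACAT2 joins acetyl-CoA units in the cytosol. It measured 10.61, 10.90 and 10.65 in Hke3, 10.80, 10.77 and 10.64 in Hkh-2, 10.36, 10.32 and 10.12 with doxycycline and 10.24, 10.31 and 10.11 with vehicle. Its groups did not overlap either, and its fold changes were close at 0.51 ± 0.10 in Hke3 (adjusted p = 0.000974) and 0.52 ± 0.10 in Hkh-2 (adjusted p = 0.00108). IDI1 converts isopentenyl diphosphate into its reactive isomer. Its levels were 11.92, 11.92 and 11.63 in Hke3, 11.80, 11.71 and 11.74 in Hkh-2, 11.54, 11.37 and 11.31 with doxycycline and 11.46, 11.28 and 11.34 with vehicle, with every recombined array above every HCT116 array. Its probe set may detect related transcripts, as its suffix marks shared sequence. It rose by 0.46 in Hke3 and 0.39 in Hkh-2 (adjusted p = 0.00133 and 0.00556). The phosphomevalonate kinase PMVK and the farnesyl diphosphate synthase FDPS rose by 0.18 and 0.19 in Hke3 (adjusted p = 0.0411 and 0.0451). Their differences of 0.17 and 0.17 in Hkh-2 were not called (adjusted p = 0.0749 and 0.0734).

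The kinase MVK and the decarboxylase MVD, which act on mevalonate and its phosphates, had their higher levels in Hkh-2. MVD was at 7.44, 7.57 and 8.08 in Hke3, 8.24, 8.33 and 8.20 in Hkh-2, 7.27, 7.22 and 7.18 with doxycycline and 7.21, 7.74 and 7.18 with vehicle. Every Hkh-2 array was above every other array, and Hke3 overlapped vehicle. MVD rose by 0.88 ± 0.16 in Hkh-2 (adjusted p = 0.00088), while the difference of 0.32 ± 0.16 in Hke3 was not called (adjusted p = 0.119). It became 0.13 (adjusted p = 0.441) without Hke3 replicate 3 and 0.50 (adjusted p = 0.0152) without vehicle replicate 2. MVK was at 8.29, 8.34 and 8.68 in Hke3, 8.94, 8.87 and 8.82 in Hkh-2, 8.55, 8.62 and 8.63 with doxycycline and 8.55, 8.82 and 8.62 with vehicle, and neither line was called against vehicle (log2 fold change -0.23 in Hke3 and 0.21 in Hkh-2, adjusted p = 0.0864 and 0.125). Without Hke3 replicate 3 MVK was called in both lines, at -0.35 in Hke3 (adjusted p = 0.00428) and 0.21 in Hkh-2 (adjusted p = 0.0387). Without vehicle replicate 2 it was called in Hkh-2 alone (0.29, adjusted p = 0.0479), with -0.15 in Hke3 (adjusted p = 0.279). By its other probe sets that passed the filter, MVK was called higher in Hkh-2 (0.58 and 0.72, adjusted p = 0.000604 and 0.0135). Those probe sets were not called in Hke3 (-0.02 and -0.01, adjusted p = 0.901 and 0.977).

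From squalene to cholesterol, 6 of 9 genes rose in Hke3 and 8 of 9 in Hkh-2, and none fell by its brightest probe set. Beside these counts, 23.2% of all genes tested rose and 24.6% fell in Hke3, and 21.7% rose and 14.3% fell in Hkh-2. MSMO1, the C4-methyl sterol oxidase, changed most among the 9. Its levels were 12.16, 12.16 and 11.999 in Hke3, 12.04, 11.85 and 11.89 in Hkh-2, 11.14, 11.09 and 11.02 with doxycycline and 11.02, 11.02 and 11.06 with vehicle. The recombined arrays lay between 11.85 and 12.16 and the HCT116 arrays between 11.02 and 11.14, so the groups did not overlap. The log2 fold changes were 1.07 ± 0.08 in Hke3 (adjusted p = 1.73e-07) and 0.89 ± 0.08 in Hkh-2 (adjusted p = 1.11e-06), or 2.11-fold and 1.86-fold. NSDHL, which works with MSMO1 in removing the C4 methyl groups, measured 9.51, 9.36 and 9.28 in Hke3, 9.37, 9.44 and 9.57 in Hkh-2, 8.82, 8.83 and 9.01 with doxycycline and 8.85, 8.69 and 8.93 with vehicle. It was higher on all recombined arrays, by 0.56 ± 0.09 in Hke3 and 0.64 ± 0.09 in Hkh-2 (adjusted p = 0.000299 and 0.000136). HSD17B7, the ketosteroid reductase of the same step, measured 10.25, 10.26 and 9.78 in Hke3, 9.96, 9.96 and 10.01 in Hkh-2, 9.16, 9.11 and 9.14 with doxycycline and 9.15, 9.03 and 9.22 with vehicle. It also stood apart on every array, at 0.96 ± 0.11 in Hke3 (adjusted p = 1.45e-05) and 0.84 ± 0.11 in Hkh-2 (adjusted p = 5.94e-05), though its probe set carries the suffix of sequence shared with other transcripts and its identity is less certain.

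The Δ7-sterol C5-desaturase SC5D followed the same pattern. It was at 10.60, 10.65 and 10.45 in Hke3, 10.32, 10.42 and 10.39 in Hkh-2, 9.71, 9.80 and 9.83 with doxycycline and 9.75, 9.63 and 9.80 with vehicle. Its groups did not overlap, with log2 fold changes of 0.84 ± 0.08 in Hke3 (adjusted p = 1.9e-06) and 0.65 ± 0.08 in Hkh-2 (adjusted p = 2.38e-05). TM7SF2, a sterol C14 reductase, was at 7.84, 7.75 and 7.68 in Hke3, 7.87, 7.69 and 7.62 in Hkh-2, 7.18, 7.33 and 7.21 with doxycycline and 7.17, 7.25 and 7.22 with vehicle. All of its recombined arrays were higher, by 0.54 ± 0.08 in Hke3 and 0.51 ± 0.08 in Hkh-2 (adjusted p = 0.000152 and 0.000306). By their brightest probe sets, the remaining genes of this stretch were called in 1 line each. Squalene epoxidase SQLE rose in Hke3 by 0.29 ± 0.08 (adjusted p = 0.0131) and measured 0.02 in Hkh-2 (adjusted p = 0.85). Other, dimmer SQLE probe sets were called lower in Hkh-2 (-0.30 and -0.28). With the mean of its probe sets, SQLE was called lower in Hkh-2 (-0.18, adjusted p = 0.0408) and not called in Hke3 (0.10, adjusted p = 0.194). Lanosterol synthase LSS rose in Hkh-2 by 0.41 ± 0.14 (adjusted p = 0.0315), as did the sterol isomerase EBP by 0.24 ± 0.08 (adjusted p = 0.032), against uncalled differences of 0.21 and 0.19 in Hke3. By its next brightest probe set, EBP was instead called higher in Hke3 (0.29, adjusted p = 0.0167) and not called in Hkh-2 (0.10, adjusted p = 0.407). DHCR7, the last reductase before cholesterol, rose in Hkh-2 by 0.32 ± 0.11 (adjusted p = 0.0443) and measured -0.25 ± 0.11 in Hke3 (adjusted p = 0.0835). In Hke3 it was called at -0.37 (adjusted p = 0.00887) without Hke3 replicate 3, and stood at -0.13 (adjusted p = 0.325) without vehicle replicate 2. Its levels were 9.79, 9.85 and 10.18 in Hke3, 10.57, 10.49 and 10.46 in Hkh-2, 10.02, 10.11 and 10.10 with doxycycline and 10.10, 10.43 and 10.05 with vehicle. Vehicle replicate 2 was close to the Hkh-2 arrays, and 2 of the 3 Hke3 arrays were below every HCT116 array.

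**Figure D4:**
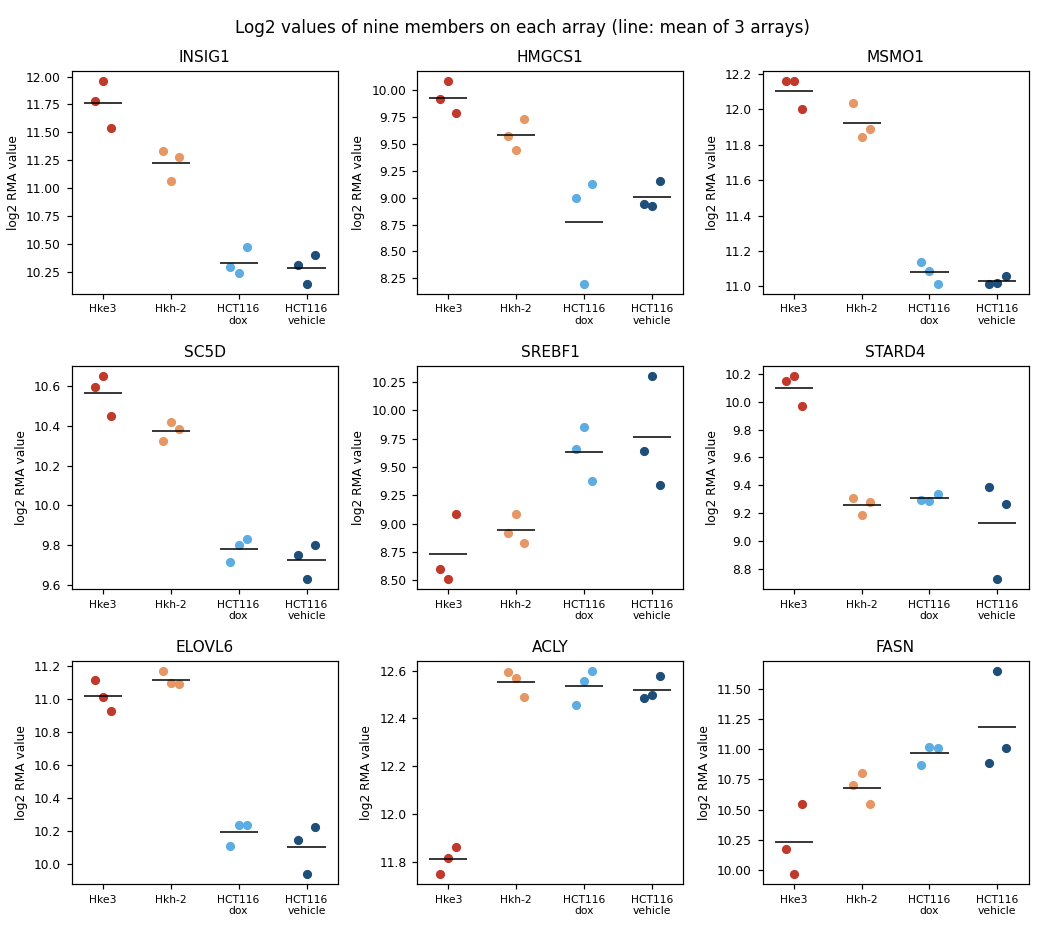
Log2 RMA value (y axis, a separate scale in each panel that does not start at 0) of INSIG1, HMGCS1, MSMO1, SC5D, SREBF1, STARD4, ELOVL6, ACLY and FASN on each array (points), by group (x axis), with the mean of 3 arrays as a line. MSMO1 and ELOVL6 are higher on all recombined arrays, and ACLY is lower on the Hke3 arrays alone, at 11.75 to 11.86.

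The regulators did not move as 1 group. INSIG1, which retains SREBP in the endoplasmic reticulum and is itself a classical SREBP target, had the highest fold change of all genes listed in Hke3. Its levels were 11.78, 11.96 and 11.54 in Hke3, 11.33, 11.07 and 11.28 in Hkh-2, 10.29, 10.23 and 10.47 with doxycycline and 10.31, 10.14 and 10.39 with vehicle. Hke3 was highest, Hkh-2 intermediate, and neither overlapped the HCT116 arrays. The log2 fold changes were 1.48 ± 0.12 in Hke3 (adjusted p = 4.18e-07) and 0.94 ± 0.12 in Hkh-2 (adjusted p = 3.16e-05), which ranked 257 and 458 from the top among the 12852 genes. INSIG2, the related retention protein, was at 9.49, 9.47 and 9.12 in Hke3, 8.80, 8.64 and 8.75 in Hkh-2, 8.99, 8.90 and 8.90 with doxycycline and 9.01, 8.42 and 8.91 with vehicle. It was higher on every Hke3 array than on any other, rose by 0.58 ± 0.14 in Hke3 (adjusted p = 0.0041) and measured -0.05 in Hkh-2 (adjusted p = 0.811). Without both arrays that stood apart, INSIG2 was called lower in Hkh-2, at -0.23 (adjusted p = 0.0148).

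Of the genes for the SREBP factors themselves, SREBF1 fell in both lines and SREBF2 in Hke3. SREBF1, which encodes the factors that drive fatty acid genes and sterol genes, was at 8.60, 8.51 and 9.09 in Hke3, 8.92, 9.08 and 8.83 in Hkh-2, 9.66, 9.86 and 9.38 with doxycycline and 9.64, 10.30 and 9.34 with vehicle. Every recombined array was below every HCT116 array, and vehicle replicate 2 was the highest of all. It fell in both lines, with log2 fold changes of -1.03 ± 0.22 in Hke3 (adjusted p = 0.00166) and -0.82 ± 0.22 in Hkh-2 (adjusted p = 0.0094). By its other, dimmer probe set SREBF1 was called lower in Hke3 (-0.72, adjusted p = 0.00256) and not called in Hkh-2 (-0.30, adjusted p = 0.167). SREBF2, whose product acts mainly on sterol genes, was at 8.38, 8.40 and 8.64 in Hke3, 8.64, 8.74 and 8.54 in Hkh-2, 8.78, 8.92 and 8.77 with doxycycline and 8.87, 9.07 and 8.64 with vehicle. It fell in Hke3 by 0.39 on the log2 scale (adjusted p = 0.0115) and measured -0.22 ± 0.11 in Hkh-2 (adjusted p = 0.136), where it was called at -0.33 (adjusted p = 0.0325) without vehicle replicate 3. SCAP, the escort of SREBP to the Golgi, was at 8.33, 8.16 and 8.87 in Hke3, 8.99, 9.14 and 8.89 in Hkh-2, 8.89, 8.96 and 8.84 with doxycycline and 8.87, 9.28 and 8.79 with vehicle. Its Hke3 replicates 1 and 2 were below all other arrays and replicate 3 overlapped vehicle, and its log2 fold change was -0.53 ± 0.16 in Hke3 (adjusted p = 0.0181) and 0.03 in Hkh-2 (adjusted p = 0.905).

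Among sterol transport and receptor turnover genes, MYLIP, the ubiquitin ligase that sends lipoprotein receptors to degradation, rose in both lines. It measured 8.75, 8.76 and 8.60 in Hke3, 8.74, 8.62 and 8.68 in Hkh-2, 7.92, 7.85 and 8.07 with doxycycline and 7.92, 7.80 and 8.00 with vehicle, without overlap between recombined and HCT116 arrays. The log2 fold changes were 0.79 ± 0.08 in Hke3 (adjusted p = 6.4e-06) and 0.77 ± 0.08 in Hkh-2 (adjusted p = 1.03e-05). STARD4, a carrier of cholesterol between membranes, was at 10.15, 10.19 and 9.97 in Hke3, 9.31, 9.18 and 9.28 in Hkh-2, 9.29, 9.28 and 9.34 with doxycycline and 9.39, 8.73 and 9.27 with vehicle. Hke3 alone was higher, by 0.97 ± 0.14 (adjusted p = 7.46e-05), and Hkh-2 overlapped both HCT116 groups with a difference of 0.13 ± 0.14 (adjusted p = 0.498).

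The fatty acid branch was divided between ELOVL6 and ACSS2, which rose in both lines, and FASN and FADS2, which fell in both, with ACACA falling by 1 probe set and rising by another. ELOVL6, which extends palmitate, rose most. It was at 11.11, 11.01 and 10.93 in Hke3, 11.17, 11.09 and 11.09 in Hkh-2, 10.11, 10.23 and 10.23 with doxycycline and 10.14, 9.94 and 10.22 with vehicle. Recombined arrays lay at or above 10.93 and HCT116 arrays at or below 10.23, with log2 fold changes of 0.92 ± 0.09 in Hke3 (adjusted p = 2.15e-06) and 1.02 ± 0.09 in Hkh-2 (adjusted p = 9.67e-07). ACSS2, which makes acetyl-CoA from acetate, was at 8.06, 7.90 and 8.08 in Hke3, 8.46, 8.44 and 8.42 in Hkh-2, 7.80, 7.85 and 7.91 with doxycycline and 7.77, 7.92 and 7.66 with vehicle. Hkh-2 was above all other arrays, and Hke3 replicate 2 overlapped vehicle. ACSS2 rose by 0.23 ± 0.08 in Hke3 (adjusted p = 0.0336) and 0.66 ± 0.08 in Hkh-2 (adjusted p = 3.33e-05).

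ACACA, acetyl-CoA carboxylase and the committing step of the branch, fell in both lines by its brightest probe set and rose in both by its second (log2 fold changes of 0.36 in Hke3 and 0.25 in Hkh-2, adjusted p = 0.00383 and 0.0382). By the brightest, it was at 9.75, 9.58 and 9.78 in Hke3, 9.67, 9.60 and 9.64 in Hkh-2, 10.33, 10.40 and 10.38 with doxycycline and 10.39, 10.29 and 10.41 with vehicle. The recombined arrays were all lower, with log2 fold changes of -0.66 ± 0.07 in Hke3 (adjusted p = 1.02e-05) and -0.73 ± 0.07 in Hkh-2 (adjusted p = 4.84e-06). FASN, the synthase that assembles palmitate, was at 10.18, 9.97 and 10.54 in Hke3, 10.70, 10.80 and 10.55 in Hkh-2, 10.87, 11.02 and 11.01 with doxycycline and 10.89, 11.64 and 11.01 with vehicle. Every recombined array was below every HCT116 array, and vehicle replicate 2 was the highest. The log2 fold changes were -0.95 ± 0.18 in Hke3 (adjusted p = 0.00079) and -0.50 ± 0.18 in Hkh-2 (adjusted p = 0.0443), and the Hkh-2 value became -0.27 (adjusted p = 0.16) without vehicle replicate 2. FADS2, a desaturase of long polyunsaturated chains, was at 6.87, 6.92 and 6.93 in Hke3, 6.83, 6.93 and 6.69 in Hkh-2, 7.26, 7.27 and 7.13 with doxycycline and 7.09, 7.41 and 7.07 with vehicle. It was lower on all recombined arrays, with log2 fold changes of -0.28 in Hke3 (adjusted p = 0.0287) and -0.37 in Hkh-2 (adjusted p = 0.00815), and the Hke3 value was -0.17 (adjusted p = 0.116) without vehicle replicate 2. SCD, the stearoyl-CoA desaturase, measured -0.17 and -0.30 and was called in neither line (adjusted p = 0.294 and 0.0867).

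ACLY, which splits citrate into cytosolic acetyl-CoA for both routes, fell in Hke3 and was not called in Hkh-2. It measured 11.75, 11.82 and 11.86 in Hke3, 12.60, 12.57 and 12.49 in Hkh-2, 12.46, 12.56 and 12.60 with doxycycline and 12.49, 12.50 and 12.58 with vehicle. The Hke3 arrays were the lowest 3 of the 12, and the Hkh-2 arrays overlapped both HCT116 groups. The log2 fold change was -0.71 ± 0.07 in Hke3 (adjusted p = 3.49e-06) and 0.03 ± 0.07 in Hkh-2 (adjusted p = 0.758). All 3 probe sets of ACLY gave the same picture, at -0.74, -0.71 and -0.95 in Hke3.

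Set directly against each other, Hke3 and Hkh-2 differed in 10 of the 30 genes, where 39.8% of all genes tested differed. STARD4, INSIG2, INSIG1 and SQLE were higher in Hke3, by log2 fold changes of 0.84 ± 0.14, 0.63 ± 0.14, 0.54 ± 0.12 and 0.26 ± 0.08 (adjusted p = 0.000321, 0.00308, 0.00259 and 0.0246). The SQLE arrays read 10.68, 10.88 and 10.96 in Hke3 and 10.53, 10.67 and 10.53 in Hkh-2, with 10.53, 10.54 and 10.44 under doxycycline and 10.51, 10.65 and 10.50 under vehicle. ACLY, DHCR7, MVD, SCAP, MVK and ACSS2 were lower in Hke3 than in Hkh-2, with log2 fold changes of -0.74 ± 0.07, -0.57 ± 0.11, -0.56 ± 0.16, -0.56 ± 0.16, -0.44 ± 0.10 and -0.43 ± 0.08 (adjusted p = 3.46e-06, 0.00158, 0.0148, 0.0162, 0.00437 and 0.00108). In this comparison 16.3% of all genes were higher in Hke3 and 23.5% lower. None of the 30 passed a log2 fold change of 1.5, as 1.1% of all genes did upward and 0.685% downward, and the arrays of the lines did not overlap for 13 of the 30, beside 48% of all genes. The differences not called include HMGCS1 at 0.35 ± 0.19 (adjusted p = 0.166) and MSMO1 at 0.18 ± 0.08 (adjusted p = 0.0759), which does not show that the lines are alike. HMGCS1 was called between the lines by its other probe set (0.37, adjusted p = 0.00374), with the mean of its probe sets (adjusted p = 0.0121), with these lines fitted alone (adjusted p = 0.0347) and without doxycycline replicate 2 (adjusted p = 0.0228). Without vehicle replicate 2 and Hke3 replicate 3, 17 of the 30 genes were called, where 57.1% of all genes were, MSMO1, HSD17B7, SC5D, FASN, LSS, SREBF1 and SREBF2 being added. The epithelial markers, summed on the linear scale, were 45061 to 52037 per array in Hke3 and 60444 to 62213 in Hkh-2, while of the 3 fibroblast markers COL3A1 averaged 4.45 in Hke3 and 6.73 in Hkh-2, COL1A1 8.19 and 8.19, and DCN 6.21 and 6.21. Their part in these differences was not tested.

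No gene of either branch was called between doxycycline and vehicle. In this comparison 0 of the 30 genes were called, as were 0% of all genes tested by limma, and 127 genes but 0 of the 30 had an unadjusted p under 0.05. Of 12852 genes, 127 are fewer than a threshold of 0.05 alone would give, and the spread was estimated over all groups together. The 0 calls therefore do not show that doxycycline had no effect. The log2 fold changes of the 30 lay between -0.23 (HMGCS1) and 0.18 (STARD4), with medians of 0.01 for the sterol and 0.02 for the fatty acid branch. INSIG1 differed by 0.05 ± 0.12, MSMO1 by 0.05 ± 0.08 and SREBF1 by -0.13 ± 0.22. For 0 of the 30 did the doxycycline and vehicle arrays fall apart without overlap, which 4.37% of all genes did.

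Several genes had further probe sets, 72 in all for the genes listed, of which 63 passed the filter, and these did not always go together. INSIG1 rose by all 3 of its probe sets, at 0.61, 1.48 and 1.12 in Hke3 and 0.60, 0.94 and 0.73 in Hkh-2. HMGCS1 rose by its second probe set too, at 1.31 and 0.94. ACACA was divided, since its second probe set rose by 0.36 in Hke3 and 0.25 in Hkh-2, both called, against -0.66 and -0.73 for the brightest one, so its direction is not settled. MYLIP rose by 4 probe sets in Hke3 and 3 in Hkh-2, and was at 0.00 and -0.03 by the dimmest. The second SC5D probe set, dimmer, gave -0.14 and -0.37 and was not called. In Hkh-2, MVK rose by 0.58 and 0.72 on its other probe sets, both called, whereas other probe sets of SQLE (-0.30 and -0.28), EBP (-0.49), IDI1 (-0.34) and SCD (-0.78) were called lower. SCD was called higher in Hke3 by 1 of its probe sets (0.35), and 3 of them were called higher in Hke3 than in Hkh-2 (0.62, 0.64 and 0.55).

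**Figure D5:**
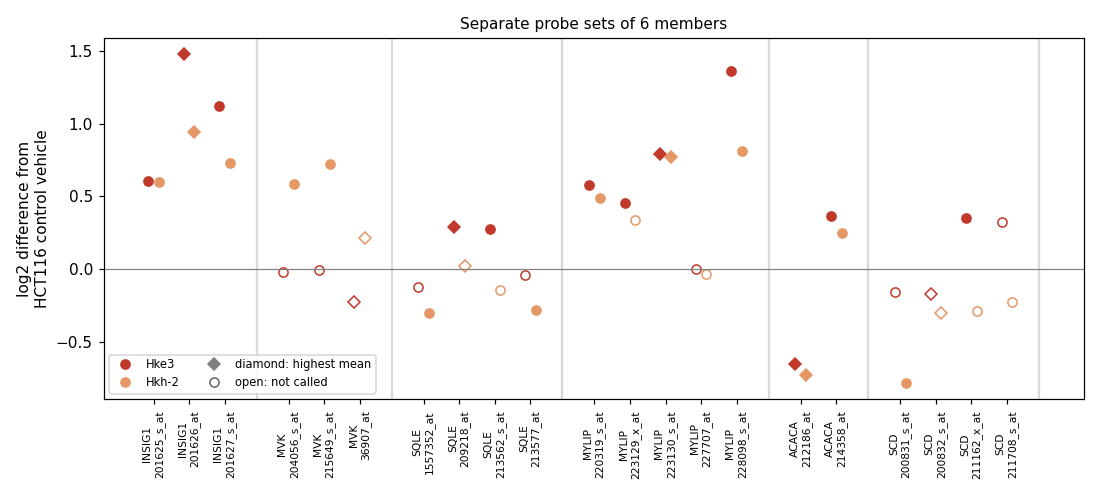
Log2 difference from HCT116 control vehicle (y axis) of each probe set that passed the filter (x axis) for INSIG1, MVK, SQLE, MYLIP, ACACA and SCD, in Hke3 and in Hkh-2. Diamonds mark the probe set of highest mean and open symbols were not called. All probe sets of INSIG1 lie above 0, and those of ACACA lie on both sides of it, at -0.66 and 0.36 in Hke3.

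Some calls did not hold when a single array was left out. In Hke3, the call was lost without any 1 of Hke3 replicates 1 to 3, Hkh-2 replicate 2, the doxycycline arrays or vehicle replicates 2 and 3 for PMVK (adjusted p 0.0547 to 0.16). For FDPS it was lost without any array other than Hke3 replicate 3 and vehicle replicate 1 (0.0519 to 0.155). For ACSS2 it was lost without Hke3 replicate 1 or 3 or vehicle replicate 1 or 3 (0.0718 to 0.136), and for FADS2 (0.0607 to 0.116) and SCAP (0.067 to 0.088) without Hke3 replicate 1 or 2 or vehicle replicate 2. In Hkh-2, HMGCS1 was lost without Hkh-2 replicate 1 or 3 or vehicle replicate 1 or 2 (0.0714 to 0.108), LSS without Hkh-2 replicate 1 or 2 or vehicle replicate 1 or 3 (0.0915 to 0.118), and EBP without any Hkh-2 array or vehicle replicate 2 or 3 (0.0542 to 0.118). DHCR7 was lost without any Hkh-2 or doxycycline array or vehicle replicate 1 or 3 (0.0574 to 0.152), and FASN without Hke3 replicate 1, any Hkh-2 or doxycycline array or vehicle replicate 2 (0.0542 to 0.16). Between the lines, MVD and SCAP were lost without Hke3 replicate 1 or 2 or Hkh-2 replicate 2 (0.0531 to 0.0737 and 0.0637 to 0.0825), and SQLE without Hke3 replicate 2 or 3 or Hkh-2 replicate 1 or 3 (0.0635 to 0.08). ACAT2, IDI1, TM7SF2, MSMO1, NSDHL, HSD17B7, SC5D, INSIG1, SREBF1, MYLIP, ACACA and ELOVL6 kept their calls in both lines whichever single array was left out.

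Of 33 further lipid genes, such as other elongases, acyl-CoA synthetases and SREBP proteases, 28 were tested. In Hke3, 10 rose and 5 fell, beside 23.2% and 24.6% of all genes tested. In Hkh-2, 7 rose and 6 fell, beside 21.7% and 14.3%. The medians were 0.00 in Hke3 and -0.02 in Hkh-2. In both lines 6 rose and 2 fell, beside 12.6% and 9.04% of all genes. The desaturase gene SCD5 rose by 1.25 ± 0.08 in Hke3 and 1.13 ± 0.08 in Hkh-2, the elongase gene ELOVL7 by 0.79 ± 0.12 and 0.52 ± 0.12, the sterol enzyme scaffold gene ERG28 by 0.48 ± 0.09 and 0.57 ± 0.09, and the acyl-CoA synthetase gene ACSL4 by 0.77 ± 0.16 and 0.48 ± 0.16 (largest adjusted p = 0.034). The 2 that fell were NR1H3, which encodes the oxysterol receptor LXRα (-0.69 and -0.44), and MBTPS1, the Golgi protease that makes the first cut in SREBP (-0.53 and -0.49), with adjusted p-values of 3.03e-06 and 0.000216 for NR1H3 and 0.000611 and 0.00134 for MBTPS1. Between the lines, 8 of the 28 were higher in Hke3 and 5 lower, beside 16.3% and 23.5% of all genes.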

How the data were processed

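RNA of Hke3, Hkh-2 and HCT116 control cells with doxycycline or vehicle was measured on 3 Affymetrix arrays per group, with 54675 probe sets. The authors deposited log2 values that the submitters' notes credit to RMA. Its version, and which arrays were normalized together, are not given in the sources used here. The targeted gene is not reported here, and arrays of the knockdown were not analysed here.

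Gene names came from the platform annotation, where 41097 probe sets had a single symbol, 1801 several and 11777 none. Of the first kind, 41043 were updated by gene ID through RefSeq (GRCh38.p14). The brightest probe set stood for a gene, and genes with no group mean of 6 were left out, after the filter the study's methods give for cell lines. Group means were fitted in limma 3.58.1 (R 4.3.3) over the 12 arrays together, with Benjamini-Hochberg adjustment over 12852 genes. The study's methods state no test for these arrays. An exact two-sided test of 3 arrays against 3 cannot go below 0.1. The number of arrays limits the precision. The members and lists were chosen with earlier results of these data known. All members are named, and of further lipid genes up to 4 per direction with the largest fold change nearer 0 among those called in both lines.

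On simulated data with 200 of 12852 genes changed, 72% of changes of 0.5 and 93% of changes of 1 were recovered for Hke3 minus vehicle, with 8.33% of calls false, and 75%, 99% and 5.43% for Hkh-2 minus vehicle. The simulated noise was independent for each gene and array, unlike the shared deviations of vehicle replicate 2 and Hke3 replicate 3. Far fewer genes were changed than were called in the data, so these rates need not hold for the arrays. Only for the doxycycline and vehicle arrays did same-numbered deviations correlate with r over 0.1 for every number (0.228, 0.212 and 0.453). Those of Hkh-2 and vehicle gave -0.0459, 0.422 and 0.337. Each vehicle array correlated best, among arrays of other groups, with one of another number. Whether replicate numbers mark a pairing is therefore not settled. Alternatives were other summaries of probe sets, other filters, median subtraction, cyclic loess, the compared groups alone, eBayes with trend and robust, the replicate block, both HCT116 groups as control, each array omitted in turn, and omission of both arrays that stand apart. A test of every probe set on its own and counts with ACACA left out or taken by its second probe set were chosen after seeing the data. Motifs were searched in the 250 bases upstream of each start.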

Additional observations from a re-analysis of the deposited data

Results flagged for a closer look

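Hke3 and Hkh-2 differed, by limma's test of the difference itself, in 10 of the 30 genes, where 39.8% of all genes tested differed. For ACLY the log2 difference was -0.74, since it was lower than vehicle in Hke3 (-0.71) and at 0.03 in Hkh-2. STARD4 (0.84) and INSIG2 (0.63) were higher in Hke3, where each rose against vehicle, and neither was called in Hkh-2. INSIG1 (0.54) rose in both lines and more in Hke3. SQLE was higher in Hke3 by 0.26. ACSS2 (-0.43) rose in both lines and more in Hkh-2. MVD (-0.56), DHCR7 (-0.57), SCAP (-0.56) and MVK (-0.44) were lower in Hke3 than in Hkh-2, and DHCR7 and MVK lay on opposite sides of vehicle in the 2 lines. Neither was called in Hke3 with all arrays, and both were called there, lower, without Hke3 replicate 3 (DHCR7 -0.37 and MVK -0.35). The same calls were made without both arrays that stood apart (-0.25 and -0.27), but not without vehicle replicate 2 alone (-0.13 and -0.15). By its other probe sets that passed the filter, MVK was near vehicle in Hke3 (-0.02 and -0.01) and not called.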

How the results depend on the processing

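Of the counts of genes called, 155 values under settings other than leaving out 1 array stayed within 1.5 times and 23 did not. With only probe sets free of an _x_ or _s_ suffix, which left 16 sterol and 2 fatty acid genes, sterol genes higher numbered 8 in Hke3, 5 in Hkh-2 and 4 in both, and every fatty acid count was 1. Sterol genes lower in Hke3 numbered 1 with the compared groups alone and 5 without both arrays that stand apart, and in Hkh-2 2 with the mean of probe sets or without both arrays. Fatty acid genes higher in Hke3, and in both lines, numbered 1 with the replicate block, without a filter and in fits of the compared groups alone. Fatty acid genes lower numbered 2 in Hke3 with the mean of probe sets, and 1 in both lines with the mean or the compared groups alone. Between Hke3 and Hkh-2, 17 genes were called without both arrays. The replicate block on vehicle and doxycycline arrays kept the count of calls at 0.

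Leaving out 1 array, sterol genes higher numbered 13 to 15 in Hke3, 10 to 15 in Hkh-2 and 9 to 11 in both, and sterol genes lower 2 to 5, 1 to 2 and 1 to 2. The 5 came without Hke3 replicate 3, and the 2 in Hkh-2 and in both lines without vehicle replicate 3. Fatty acid genes higher numbered 1 to 2 in Hke3, 2 in Hkh-2 and 1 to 2 in both, being 1 without Hke3 replicate 1 or 3 or vehicle replicate 1 or 3. Fatty acid genes lower numbered 3 to 4, 2 to 3 and 1 to 3, being 1 in both without Hke3 replicate 1 or vehicle replicate 2. Between the lines 7 to 14 genes were called, and with doxycycline 0. Where a call was made in either fit, direction turned for SC5D (-0.14 in Hke3 and -0.37 in Hkh-2) and MYLIP (-0.034 in Hkh-2) without suffixed probe sets. It also turned for SQLE (-0.18 in Hkh-2) and LPCAT3 (-0.020 between the lines) with the mean of probe sets. Over single genes, 5045 values kept their call or stayed uncalled, 188 lost the call and 125 gained it. The other 5 turned with a call in either fit. Values that turned while uncalled, such as those of SQLE, INSIG2, SCAP and STARD4 in Hkh-2 without single arrays, are among the 5045. The cause was not tested, other than that fewer genes or arrays entered some settings.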

Other observations

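Outside the listed members, 2 lipid genes stood out after their values were seen. ACSL5, an acyl-CoA synthetase, measured 7.44, 7.44 and 7.15 in Hke3, 9.06, 9.02 and 8.88 in Hkh-2, 7.16, 7.10 and 7.05 with doxycycline and 7.20, 6.82 and 6.95 with vehicle, and was 3.98-fold higher in Hkh-2 than with vehicle. It was also called higher in Hke3, by 0.35 on the log2 scale (adjusted p = 0.0157). SOAT1, which esterifies cholesterol, measured 9.84, 10.01 and 9.81 in Hke3, 8.74, 8.67 and 8.95 in Hkh-2, 8.87, 8.90 and 9.17 with doxycycline and 8.94, 8.71 and 9.09 with vehicle, and was 1.97-fold higher in Hke3 than with vehicle. SOAT1 differed by -0.13 on the log2 scale in Hkh-2 and was not called there (adjusted p = 0.441).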
